A study of Mus musculus with 18 samples.

Results

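The 10 genes described here are Notch1 and Notch2, receptors, Jag1, Jag2, Dll1 and Dll4, ligands, Lfng, which modifies the receptors, and Hes1, Atoh1 and Gfi1, transcription factors. They were chosen by name from the 56748 genes of a table of FPKM, fragment counts divided by gene length and by library size, and all 10 names were found. The samples were mouse colon organoids, epithelial cultures grown from the proximal, mid or distal colon. Organoids of each region were kept in ENR with Wnt3a-conditioned medium, the control in which they proliferate, or in differentiation medium, and both media were given after passaging. With 3 libraries for each region and medium there were 18 libraries in 6 groups, and the strain, the age and the makeup of the differentiation medium are not stated there. Nothing in those sources says whether replicates 1 to 3 are separate animals or cultures, so the p-values measure only the spread between these samples.

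In the Notch pathway a ligand on one cell, of the Jagged or Delta-like family, binds a Notch receptor on its neighbour. The receptor is then cut, last by the gamma-secretase complex, and its inner part enters the nucleus and joins the DNA-binding protein Rbpj to switch on targets such as Hes1. In the gut epithelium Hes1 is a repressor of Atoh1, the factor that secretory cells (goblet and enteroendocrine cells) need, and cells with Atoh1 display Delta-like ligands to their neighbours. Lfng is an enzyme that adds sugar to the receptor and alters which ligands it answers, and Gfi1 is a repressor that acts after Atoh1 in secretory cells.

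Promoters are shown for Lfng and for Atoh1, the secretory factor. Lfng had the largest log2 fall of these genes between the media in proximal and mid organoids. Each sequence is the 250 bases before the gene's start from RefSeq on GRCm38.p6, on the plus strand, at chr5:140607091-140607340 for Lfng and chr6:64728875-64729124 for Atoh1. Capitals mark matches on either strand to TGGGAA, the core bound by Rbpj, CACNAG, the N-box bound by Hes proteins, CAGCTG, an E-box, or ATCAAAG, the site of TCF factors of the Wnt pathway.
Lfng: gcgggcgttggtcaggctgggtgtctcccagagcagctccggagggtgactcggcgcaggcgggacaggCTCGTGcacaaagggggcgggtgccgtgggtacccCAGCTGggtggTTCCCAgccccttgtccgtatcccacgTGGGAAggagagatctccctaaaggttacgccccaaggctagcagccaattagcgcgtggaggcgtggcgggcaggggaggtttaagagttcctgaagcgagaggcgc
Atoh1: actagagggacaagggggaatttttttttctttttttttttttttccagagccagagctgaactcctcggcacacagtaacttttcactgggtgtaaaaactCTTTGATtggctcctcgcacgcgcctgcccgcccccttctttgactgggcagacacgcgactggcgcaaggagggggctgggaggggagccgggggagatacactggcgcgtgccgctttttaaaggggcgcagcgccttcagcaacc
The Lfng window held 2 Rbpj cores, at -135 to -130 and -108 to -103 from the start, along with 1 N-box and 1 E-box. Of 32851 mouse promoter windows of this length, 21.6% held an Rbpj core and 2.77% held at least 2. The N-box was present in 36.7% and the E-box in 13.0% of all windows. The Atoh1 window held 1 TCF match, at -148 to -142, a motif in 3.21% of windows. Of the 10 genes 9 had an entry, while Hes1 had none and was not searched. Besides Lfng, no Rbpj core was found in the windows of the other 8 genes with an entry. A match describes letters in a window and is not a binding site.

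Libraries held between 12827751 and 19938198 recovered reads. On the first principal component, with 63.5% of the variance, proximal differentiation replicate 1 lay at 5.80. The other libraries of its group lay at 44.1 and 37.9. Calls of the members that change without proximal differentiation replicate 1 are given below, along with some of the list counts that change. Epithelial marker genes were expressed in every group, while the summed markers of fibroblasts, endothelium and neural or muscle cells reached at most 0.176, 0.684 and 0.217 FPKM in any library. Summed immune markers reached up to 3.43 FPKM, in a proximal control library. Cd68, a macrophage marker, was the 1 of these genes that was tested. Within mid organoids Cd68 was lower in differentiation than in control medium (log2 fold change -0.87 ± 0.26 SE, limma adjusted p = 0.00925). Of 9 tuft cell genes 2, Gnat3 and Il25, were at 0 reads in all 18 libraries. The summed FPKM of the 9 reached up to 3.89, in a distal control library, and Avil, another of them, reached up to 2.29. None of the 9 passed the filter for testing, which asks that 3 or more libraries reach an FPKM of 1. All 5 crypt stem genes were called lower in differentiation medium in each region, but 3 of them (Lgr5, Ascl2 and Smoc2) passed the filter through control libraries alone. Proliferation genes fell in 5, 10 and 9 of 10 in proximal, mid and distal organoids, and in 9 of 10 in proximal organoids without proximal differentiation replicate 1. Of 7 colonocyte genes, markers of absorptive cells, 6, 7 and 7 rose. With all libraries in the fit, 26.2%, 32% and 31.3% of all tested genes fell in proximal, mid and distal organoids. The shares that rose were 27.6%, 31.5% and 31.6%. The mitochondrial share of reads lay between 2.01% and 2.99% in control medium and between 2.46% and 5.57% in differentiation medium. The ratio of summed reads to the library size behind the FPKM was 0.831 to 0.873 in control and 0.959 to 1.32 in differentiation libraries. The part of the markers and of the mitochondrial share in the medium responses below was not tested. In these bulk libraries, fewer cells of a type and less RNA per cell cannot be told apart.

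The first comparison set differentiation against control medium within each region. Fold changes are differences of log2(FPKM + 1) with the standard error (SE) of a limma fit across the 12896 genes that passed the filter, and a gene was called at a Benjamini-Hochberg adjusted p below 0.05. Fold changes on this scale understate those of genes with low FPKM. Lfng, Notch2, Jag1 and Jag2 fell in all 3 regions, Notch1 fell in mid and distal organoids, and Atoh1 rose in proximal and distal organoids. In proximal organoids 1 of the 10 genes rose and 5 fell, where 53.8% of all tested genes were called (27.6% higher and 26.2% lower). In mid organoids 1 rose and 7 fell, where 63.5% of all genes were called (31.5% rose and 32% fell). In distal organoids 2 rose and 5 fell, where 62.9% were called (31.6% higher and 31.3% lower). The mid and distal rises include Gfi1, which passed the filter through differentiation libraries alone. The falls in all 3 regions include Lfng, which passed through control libraries alone. For these genes the filter itself favoured the direction counted. The median log2 fold change of the 10 genes was -0.52 in proximal, -0.87 in mid and -0.61 in distal organoids, while that of all tested genes was -0.01, 0.00 and 0.00. Scaling by summed reads instead of the deposited library sizes left Gfi1 under the filter and lowered the median of all genes to -0.26, -0.34 and -0.35. The remaining 9 genes then had 1 gene higher and 6 lower in proximal organoids, 0 and 7 in mid organoids, and 1 and 7 in distal organoids. The shares of all genes above hold for the deposited library sizes and do not apply to these counts.

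**Figure D1:**
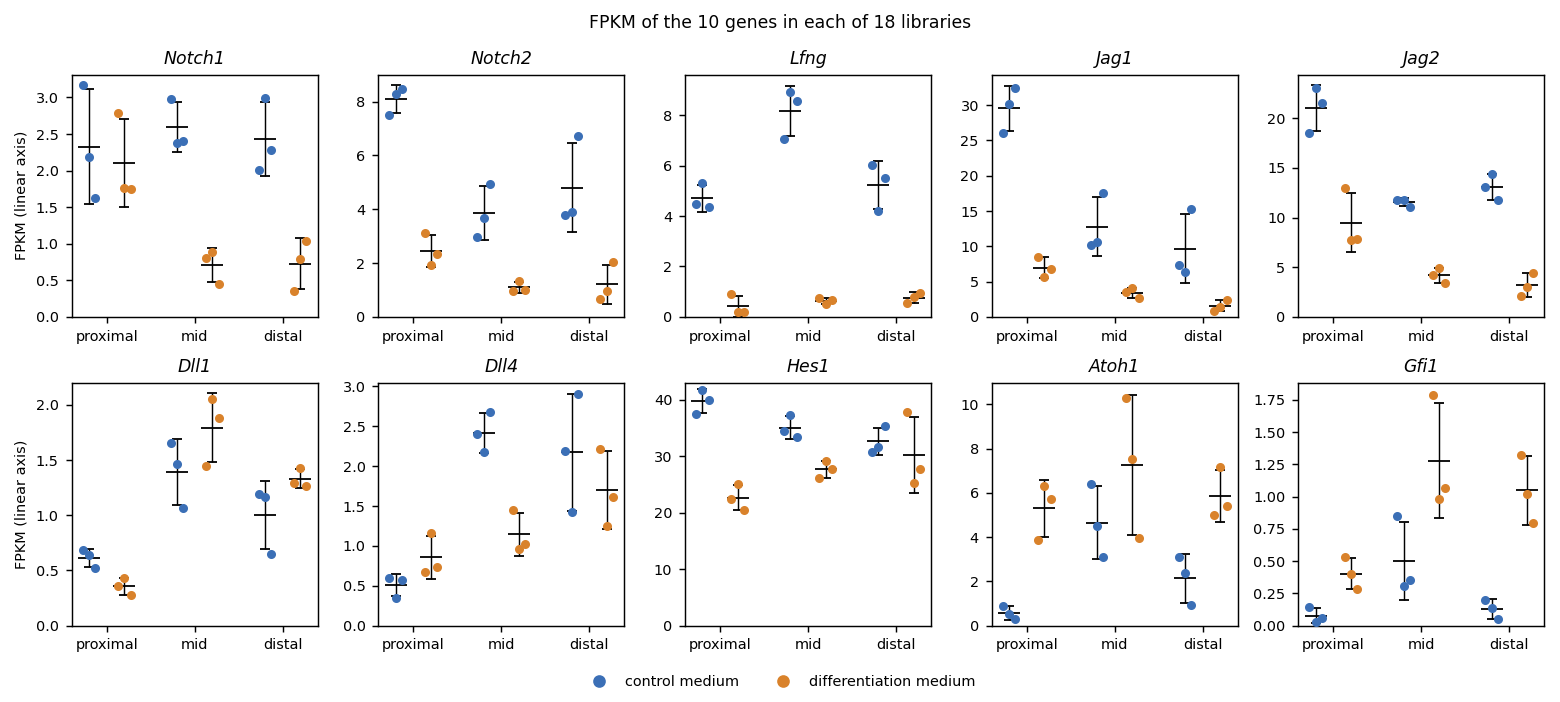
FPKM of the 10 genes (linear vertical axes from 0) in every library, by colon region, with control medium in blue and differentiation medium in orange. Points are single libraries, and black bars give the mean and SD of 3; Lfng, for example, lies between 4.20 and 8.91 FPKM in control and between 0.180 and 0.953 in differentiation libraries.

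Among receptors, Notch2 (ENSMUSG00000027878, mm39 chromosome 3, 97920843 to 98057677) stood, for replicates 1 to 3, at 7.51, 8.29 and 8.47 FPKM in proximal control and 3.10, 1.93 and 2.35 in proximal differentiation medium. In mid organoids its values were 2.98, 3.68 and 4.95 in control and 0.967, 1.34 and 1.001 in differentiation medium. Distal organoids had 3.77, 3.91 and 6.71 against 0.650, 0.964 and 2.03 FPKM. Every differentiation library was below every control library of its region. The log2 fold changes of Notch2 were -1.40, -1.19 and -1.40 in proximal, mid and distal organoids (SE 0.23, n = 3 per group), with limma adjusted p of 0.000135, 0.000298 and 8.13e-05. The control mean of Notch2 was 3.29, 3.50 and 3.95 times the differentiation mean in FPKM.

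Notch1 (ENSMUSG00000026923, mm39 chromosome 2, 26347915 to 26406675) had 3.17, 2.19 and 1.63 FPKM in proximal control and 2.79, 1.77 and 1.74 in proximal differentiation medium. These overlapped, and the proximal log2 fold change of -0.09 ± 0.20 (SE) did not pass (limma adjusted p = 0.717). Mid values of Notch1 were 2.98, 2.38 and 2.40 in control and 0.806, 0.881 and 0.452 in differentiation medium. Distal values were 2.01, 2.99 and 2.29 against 0.347, 0.790 and 1.04 FPKM. In mid and distal organoids no libraries overlapped between the media, and the log2 fold changes of Notch1 were -1.07 and -1.001 (SE 0.20, limma adjusted p = 0.000244 and 0.000455). An antisense lncRNA, 0610009E02Rik, overlaps Notch1, and its FPKM reached at most 0.486. The sources do not say whether the libraries kept the strand, so reads of Notch1 and of that gene cannot be told apart.

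Lfng (ENSMUSG00000029570, mm39 chromosome 5, 140593075 to 140601300) had 4.47, 5.32 and 4.34 FPKM in proximal control and 0.914, 0.191 and 0.180 in proximal differentiation medium. Mid libraries held 7.06, 8.91 and 8.55 in control and 0.733, 0.501 and 0.653 in differentiation medium. Distal libraries held 6.02, 4.20 and 5.49 against 0.535, 0.796 and 0.953 FPKM. All 9 differentiation libraries were thus below all 9 control libraries. Lfng had the largest fall of the 10 genes in proximal and mid organoids, with log2 fold changes of -2.03 and -2.49, and one of -1.82 in distal organoids (SE 0.18, limma adjusted p = 4.91e-07, 3.40e-08 and 8.63e-07). The control mean was 11.0, 13.0 and 6.88 times the differentiation mean. Lfng passed the filter through its control libraries alone. Proximal differentiation replicate 1 held the highest Lfng of its group, and without it the log2 fold change was -2.26 ± 0.15 (SE).

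Among ligands, Jag1 (ENSMUSG00000027276, mm39 chromosome 2, 136923376 to 136958564) had 26.1, 30.2 and 32.4 FPKM in proximal control and 8.49, 5.66 and 6.84 in proximal differentiation medium. Mid values were 10.1, 10.6 and 17.6 in control and 3.51, 4.11 and 2.71 in differentiation medium. Distal values were 7.36, 6.31 and 15.3 against 0.831, 1.45 and 2.40 FPKM. No differentiation library reached a control library of its region, and replicate 3 was the highest of the 3 control libraries in each region. Jag1 had log2 fold changes of -1.94, -1.61 and -2.01 in proximal, mid and distal organoids (SE 0.29, limma adjusted p = 6.84e-05, 0.000188 and 2.88e-05).

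Jag2 (ENSMUSG00000002799, mm39 chromosome 12, 112871439 to 112893396) had 18.6, 23.1 and 21.5 FPKM in proximal control and 12.9, 7.74 and 7.82 in proximal differentiation medium. Mid values were 11.8, 11.8 and 11.1 in control and 4.21, 4.92 and 3.41 in differentiation medium. Distal values were 13.1, 14.3 and 11.7 against 2.06, 3.01 and 4.45 FPKM. The media did not overlap in any region. The log2 fold changes of Jag2 were -1.10, -1.28 and -1.79 (SE 0.20, limma adjusted p = 0.000356, 5.68e-05 and 3.15e-06). Without proximal differentiation replicate 1, its highest value in that group, the proximal log2 fold change was -1.32 ± 0.19 (SE).

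The Delta-like ligands were lower in FPKM than the Jagged ligands in every control library. Dll1 (ENSMUSG00000014773, mm39 chromosome 17, 15587616 to 15597134) had 0.686, 0.636 and 0.524 FPKM in proximal control and 0.357, 0.435 and 0.280 in proximal differentiation medium. In mid organoids the values were 1.65, 1.47 and 1.07 against 1.45, 2.05 and 1.88, and in distal organoids 1.19, 1.17 and 0.650 against 1.29, 1.43 and 1.27 FPKM. The media overlapped in mid organoids only, but the log2 fold changes of -0.25, 0.22 and 0.23 (SE 0.14) did not pass in any region (limma adjusted p = 0.132, 0.167 and 0.152). In proximal organoids Dll1 was called lower with a pseudocount of 0.1 (-0.65, limma adjusted p = 0.0387), when scaled to summed reads (-0.37, adjusted p = 0.0436) and with only the groups compared in the fit (-0.25, adjusted p = 0.0486).

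Dll4 (ENSMUSG00000027314, mm39 chromosome 2, 119156265 to 119166443) had 0.601, 0.348 and 0.574 FPKM in proximal control and 0.673, 1.16 and 0.731 in proximal differentiation medium. Mid values were 2.40, 2.18 and 2.67 in control and 1.45, 0.960 and 1.02 in differentiation medium, and distal values were 2.19, 1.43 and 2.90 against 2.22, 1.26 and 1.62 FPKM. The media were apart in proximal and mid organoids, in opposite directions, and overlapped in distal organoids. Dll4 fell in mid organoids (log2 fold change -0.68 ± 0.18 SE, limma adjusted p = 0.00371). The values in proximal (0.29, adjusted p = 0.175) and distal organoids (-0.22, adjusted p = 0.287) did not pass in limma, but scaled to summed reads the distal fall was called (-0.52, adjusted p = 0.0115). Gm14207, an antisense lncRNA that overlaps Dll4, reached at most 1.07 FPKM, and the reads of the pair cannot be told apart.

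In differentiation medium Dll1 and Dll4 made up a larger share of the summed FPKM of the 4 ligands than in control medium. Their share was 2.80%, 1.81% and 1.998% in proximal control and 4.59%, 10.6% and 6.46% in proximal differentiation medium. In mid organoids it was 15.6%, 14.0% and 11.5% in control and 27.3%, 25% and 32.2% in differentiation medium. Distal organoids had 14.2%, 11.2% and 11.6% against 54.9%, 37.6% and 29.7%. No share in differentiation medium overlapped the control shares of its region. The summed FPKM of the 4 ligands was 51.7 ± 5.01 (SD, n = 3) in proximal control and 17.7 ± 4.12 in proximal differentiation medium. Mid organoids had 28.1 ± 3.70 in control and 10.6 ± 1.51 in differentiation medium, and distal organoids had 25.9 ± 4.08 and 7.76 ± 1.74. The shares follow from the FPKM above and are given as a description, with no test.

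**Figure D2:**
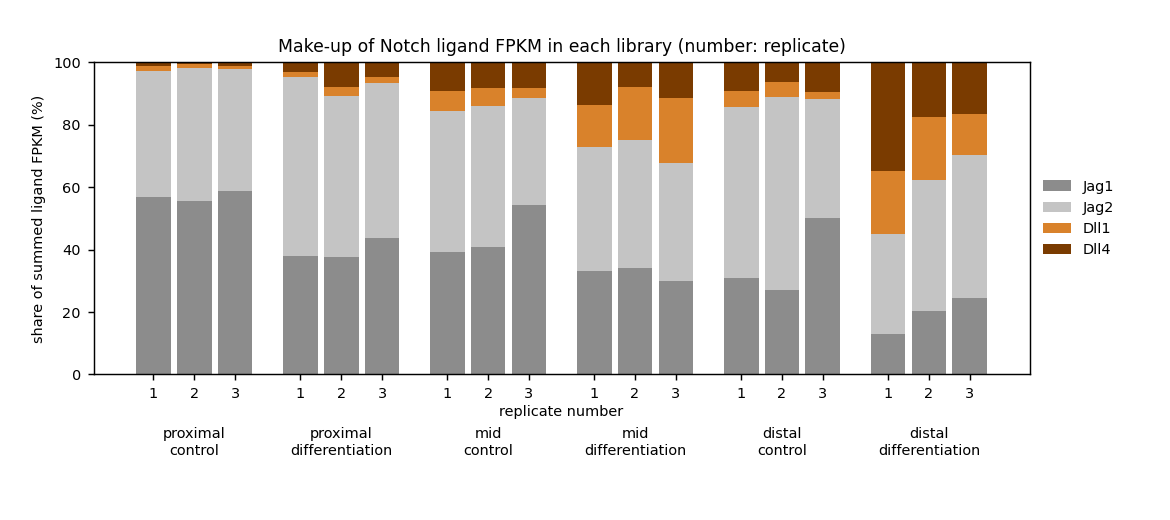
Share (%) of Jag1, Jag2, Dll1 and Dll4 in their summed FPKM, 1 stacked bar per library, in the 6 groups of region and medium. Dll1 and Dll4, at the top of each bar, run from 1.81% in a proximal control library to 54.9% in a distal differentiation library.

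Hes1 (ENSMUSG00000022528, mm39 chromosome 16, 29883202 to 29886614) had 37.5, 41.7 and 40.0 FPKM in proximal control and 22.4, 25 and 20.6 in proximal differentiation medium. Mid values were 34.4, 37.3 and 33.3 in control and 26.1, 29.1 and 27.7 in differentiation medium. Distal values were 30.8, 31.7 and 35.3 against 37.9, 25.3 and 27.7 FPKM. The media were apart in proximal and mid organoids, while in distal organoids replicate 1 in differentiation medium lay above every control library. Hes1 fell in proximal organoids (log2 fold change -0.79 ± 0.13 SE, limma adjusted p = 0.000125) and in mid organoids (-0.33 ± 0.13, adjusted p = 0.0320). The mid call was lost without mid control replicate 1, mid control replicate 2, mid differentiation replicate 1 or mid differentiation replicate 3 (adjusted p = 0.0584, 0.105, 0.0983 and 0.0649 in limma). It was lost too with no filter (adjusted p = 0.0511). The distal value, -0.12, did not pass (adjusted p = 0.411 in limma). It was called without distal differentiation replicate 1 (-0.29, adjusted p = 0.0255) and when scaled to summed reads (-0.57, adjusted p = 0.000267). That library had the highest ratio of summed reads to deposited library size, 1.32, where the others spanned 0.831 to 1.21.

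Atoh1 (ENSMUSG00000073043, mm39 chromosome 6, 64706109 to 64708229) had 0.910, 0.524 and 0.282 FPKM in proximal control and 3.86, 6.32 and 5.74 in proximal differentiation medium. Mid values were 6.39, 4.48 and 3.09 in control and 10.3, 7.54 and 3.97 in differentiation medium. Distal values were 3.11, 2.37 and 0.949 against 5.003, 7.18 and 5.39 FPKM. The media overlapped in mid organoids and were apart in proximal and distal organoids. Atoh1 rose by 2.003 ± 0.32 (SE) in proximal and 1.18 ± 0.32 in distal organoids on the log2 scale (limma adjusted p = 0.000118 and 0.00445). The mid value, 0.51 ± 0.32, did not pass (limma adjusted p = 0.173), and it was called without mid differentiation replicate 3, the lowest of its group (0.84, adjusted p = 0.0323). In mean FPKM the differentiation libraries were 9.29, 1.56 and 2.74 times the control libraries. Set against Hes1 in the same library, Atoh1 FPKM was 0.704% to 2.42% of Hes1 in proximal control and 17.3% to 27.9% in proximal differentiation medium. It was 9.28% to 18.6% and 14.3% to 39.4% in mid, and 2.69% to 10.1% and 13.2% to 28.4% in distal organoids.

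Gfi1 (ENSMUSG00000029275, mm39 chromosome 5, 107864523 to 107873902) had the lowest mean FPKM of the 10 genes in each control group, with 0.141, 0.0290 and 0.0562 FPKM in proximal control and 0.529, 0.401 and 0.283 in proximal differentiation medium. Mid values were 0.848, 0.305 and 0.354 in control and 1.79, 0.984 and 1.07 in differentiation medium, and distal values were 0.201, 0.135 and 0.0527 against 1.33, 1.02 and 0.795 FPKM. Differentiation libraries were above control libraries in every region. Behind these values were 12 and 60 reads over the 3 proximal libraries of each medium, 98 and 193 over the mid and 25 and 130 over the distal libraries. Gfi1 rose in mid and distal organoids (log2 fold change 0.60 and 0.85, SE 0.17, limma adjusted p = 0.00520 and 0.000400). Only 4 differentiation libraries, in mid and distal organoids, brought Gfi1 past the filter. The proximal value was 0.38 ± 0.17 (limma adjusted p = 0.0638). It was called without mid control replicate 1 or mid differentiation replicate 1 (adjusted p = 0.0458 and 0.0475 in limma). It was also called by the voom fit of the recovered reads (2.54, adjusted p = 0.00461), with a pseudocount of 0.1 (1.54, adjusted p = 0.00603 in limma) and with only the groups compared (adjusted p = 0.0182 in limma). The antisense lncRNA A430072P03Rik overlaps Gfi1 and reached at most 0.0307 FPKM, and reads of the pair cannot be told apart.

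**Figure D3:**
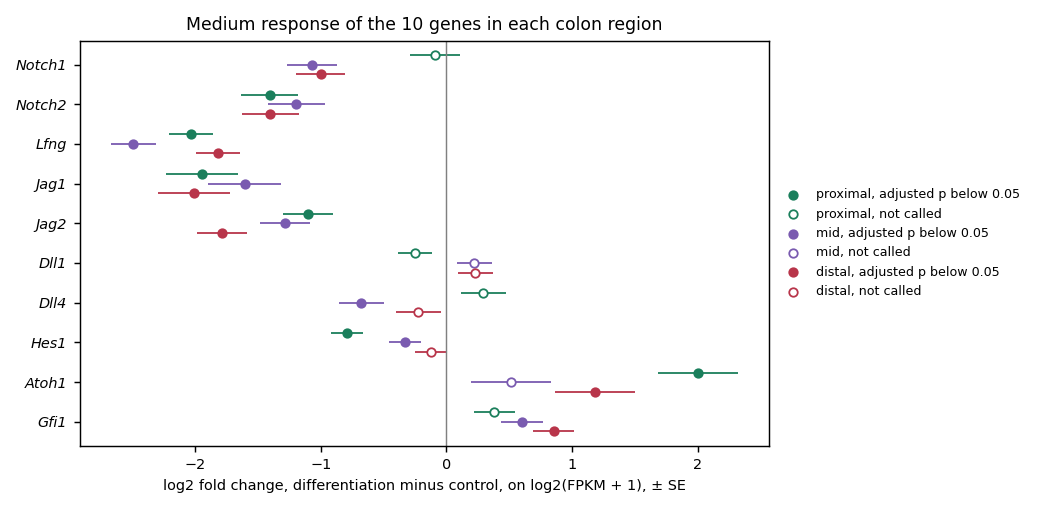
Log2 fold change of log2(FPKM + 1), differentiation minus control medium, with its SE, for the 10 genes (rows) in proximal, mid and distal organoids (colours). Filled points passed an adjusted p of 0.05; Lfng lies lowest in proximal and mid organoids, at -2.03 and -2.49, and Atoh1 in proximal organoids lies highest, at 2.003.

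The next comparison set the regions against each other within a medium. In control medium the proximal organoids had more Jag1 and less Dll4 than both other regions. Distal organoids had 1 of the 10 genes higher and 1 lower than proximal, where 10.5% of all tested genes were called (5.57% higher and 4.98% lower). Dll4 was higher by 1.05 ± 0.18 (SE) and Jag1 lower, at -1.61 ± 0.29 (limma adjusted p = 0.000912 and 0.00151). Neither gene had control libraries that overlapped between the 2 regions. Atoh1 (0.95, adjusted p = 0.0725), Notch2 (-0.68, adjusted p = 0.0695) and Jag2 (-0.65, adjusted p = 0.0515) did not pass in limma. Each was called when single libraries were left out. Atoh1 was called without mid differentiation replicate 3 (limma adjusted p = 0.0442) or distal control replicate 3 (1.26, adjusted p = 0.0173). Notch2 was called without distal control replicate 3, distal differentiation replicate 1 or distal differentiation replicate 3 (limma adjusted p = 0.0160, 0.0490 and 0.0329). Jag2 was called without proximal differentiation replicate 1, distal differentiation replicate 1 or distal differentiation replicate 3 (limma adjusted p = 0.0209, 0.0264 and 0.0257), and with only the groups compared (adjusted p = 0.0300). The voom fit called Notch2 and Jag2 (adjusted p = 0.0394 and 0.0325), and a pseudocount of 0.1 called Atoh1 (1.70, limma adjusted p = 0.0218).

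Mid organoids in control medium had 4 of the 10 genes higher and 3 lower than proximal organoids, where 13.3% of all tested genes were called (7.99% higher and 5.28% lower). Atoh1 was higher by 1.82 ± 0.32 (SE) and Dll4 by 1.18 ± 0.18 (limma adjusted p = 0.00116 and 0.000326). Lfng (0.68, adjusted p = 0.0183) and Dll1 (0.56, adjusted p = 0.0129) were higher too in limma. No proximal library brought Dll1 or Gfi1 past the filter, which thus favoured higher values in mid organoids for these genes. Notch2 (-0.92, adjusted p = 0.0138), Jag1 (-1.18, adjusted p = 0.0129) and Jag2 (-0.81, adjusted p = 0.0142) were lower. These 5 calls were each lost without at least 2 single libraries. Without proximal control replicate 3 all 5 were lost, with limma adjusted p of 0.0564 for Notch2, 0.0624 for Dll1, 0.0581 for Jag1, 0.0553 for Jag2 and 0.0799 for Lfng. Without mid control replicate 2 those of Notch2, Dll1, Jag1 and Lfng were lost (adjusted p = 0.0514, 0.0548, 0.0620 and 0.0820 in limma). Without mid control replicate 1 those of Notch2, Dll1 and Jag1 were lost (adjusted p = 0.0734, 0.0703 and 0.0646 in limma). Without proximal control replicate 2 Notch2 and Jag2 were lost (limma adjusted p = 0.0535 and 0.0691), and without mid control replicate 3 Lfng was lost (adjusted p = 0.0582). The calls of Atoh1 and Dll4 held in every leave-one-out fit. With a pseudocount of 0.1 the call of Lfng was lost too (0.78, limma adjusted p = 0.200). Gfi1 did not pass (0.47 ± 0.17 SE, limma adjusted p = 0.0780), but it was called with a pseudocount of 0.1 (1.72, adjusted p = 0.0133 in limma) and by the voom fit (2.75, adjusted p = 0.00881).

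Between distal and mid organoids limma called 0 of the 10 genes in either medium, where 0.326% of all genes were called in control and 0.69% in differentiation medium. At an unadjusted p under 0.05 there were 3 in control and 1 in differentiation medium, and the voom fit also called 0.

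In differentiation medium the proximal organoids had more of the Jagged ligands and of Notch1. Distal organoids had 4 of the 10 genes higher and 4 lower than proximal, where 29.9% of all tested genes were called (15.6% higher and 14.3% lower). Jag1 (-1.67 ± 0.29 SE), Jag2 (-1.34 ± 0.20) and Notch1 (-0.85 ± 0.20) were lower and Dll1 (0.78 ± 0.14) was higher, with limma adjusted p of 0.000422, 0.000128, 0.00436 and 0.000481. For these 4 genes no proximal library overlapped a distal one in differentiation medium. Dll1 and Gfi1 passed the filter through mid and distal libraries alone, so the filter itself favoured higher values than in proximal organoids. Notch2 was lower too (-0.68, limma adjusted p = 0.0332), and Gfi1 (0.54, adjusted p = 0.0227), Dll4 (0.53, adjusted p = 0.0332) and Hes1 (0.39, adjusted p = 0.0301) were higher. Without proximal differentiation replicate 1 the calls of Notch2, Dll4 and Hes1 were lost (limma adjusted p = 0.116, 0.0990 and 0.0614), while Lfng was called higher (0.56, adjusted p = 0.0114). Without distal differentiation replicate 1 the calls of Notch2, Gfi1, Dll4 and Hes1 were all lost (limma adjusted p = 0.144, 0.0861, 0.136 and 0.134). Without proximal differentiation replicate 3 these same 4 calls were lost as well (limma adjusted p = 0.0663, 0.0812, 0.0959 and 0.113). Gfi1 was also lost without proximal differentiation replicate 2 (limma adjusted p = 0.0530), Gfi1 and Notch2 without distal differentiation replicate 2 (0.0572 and 0.107), and Dll4 without distal differentiation replicate 3 (0.0560). With no filter Notch2 and Dll4 were lost (limma adjusted p = 0.0738 and 0.0757). Scaled to summed reads, where the shares of all genes above do not apply, 1 gene was higher and 4 lower.

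Mid organoids in differentiation medium had 2 genes higher and 4 lower than proximal, where 29.4% of all tested genes were called (15.6% higher and 13.7% lower). Dll1 (1.04 ± 0.14 SE) and Gfi1 (0.69 ± 0.17) were higher, with limma adjusted p of 4.19e-05 and 0.00570. Both passed the filter through mid and distal libraries alone, so the filter itself favoured this direction. Jag2 (-0.99 ± 0.20) and Notch1 (-0.85 ± 0.20) were lower, with limma adjusted p of 0.00155 and 0.00453. Jag1 (-0.85, limma adjusted p = 0.0376) and Notch2 (-0.71, adjusted p = 0.0274) were lower too, but these calls lay near the threshold. With no filter both were lost (limma adjusted p = 0.0810 and 0.0606). Without proximal differentiation replicate 1, proximal differentiation replicate 3, mid differentiation replicate 1 or mid differentiation replicate 3 Jag1 was lost (limma adjusted p = 0.117, 0.0794, 0.0804 and 0.129). Notch2 was lost without the same libraries (limma adjusted p = 0.0989, 0.0577, 0.0853 and 0.0767). Without proximal differentiation replicate 1, Lfng was called higher (0.46, limma adjusted p = 0.0341), and without distal differentiation replicate 1 Hes1 was (0.28, adjusted p = 0.0306). Scaled to summed reads, where the shares of all genes above do not apply, 1 gene was higher and 4 lower.

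Ordered by mean FPKM, Jag1 stood at 29.5 ± 3.18 (SD, n = 3) in proximal, 12.8 ± 4.17 in mid and 9.66 ± 4.92 in distal control libraries. The mid and distal means did not differ beyond their spread. Dll4 ran the other way, at 0.508 ± 0.139 in proximal, 2.17 ± 0.739 in distal and 2.42 ± 0.249 in mid control libraries, and distal and mid again overlapped. For Atoh1 the control order was proximal (0.572 ± 0.317), distal (2.14 ± 1.10) and mid (4.65 ± 1.66), with a distal library inside the range of mid. In differentiation medium Atoh1 stood at 5.31 ± 1.28 in proximal, 5.86 ± 1.16 in distal and 7.27 ± 3.17 in mid organoids, and all 3 ranges overlapped.

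A test of the medium response itself asked whether it differed between distal and proximal organoids. Hes1 was the 1 gene called of the 10, where 8.24% of all tested genes were called (4.16% higher and 4.09% lower). Its response was higher in distal than in proximal organoids by 0.67 ± 0.18 (SE, limma adjusted p = 0.0317), from -0.79 in proximal and -0.12 in distal organoids. The call was lost without any 1 of 6 libraries. Without proximal control replicate 2 or replicate 3 the limma adjusted p was 0.0836 and 0.0721, and without proximal differentiation replicate 1 or replicate 3 it was 0.0506 and 0.0793. Without distal control replicate 1 or replicate 2 the limma adjusted p was 0.0674 and 0.0664. Notch1 (-0.91 ± 0.28, adjusted p = 0.0593) and Jag2 (-0.69 ± 0.28, adjusted p = 0.158) did not pass in limma. Notch1 was called without proximal control replicate 1 (-1.08, limma adjusted p = 0.0262) or distal differentiation replicate 3 (-1.04, adjusted p = 0.0351), and Jag2 without the latter (-0.90, adjusted p = 0.0411). The difference for Atoh1 was -0.82 ± 0.45 (limma adjusted p = 0.295), so its rises in the 2 regions were not shown to differ. An F test in limma of any difference between the 3 regions called 0 of the 10 genes, where 9.59% of all tested genes were called. At an unadjusted p under 0.05 there were 6, and the voom fit called 1.

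Other genes of the pathway were taken from lists by role. Of all tested genes 27.6%, 31.5% and 31.6% rose and 26.2%, 32% and 31.3% fell in proximal, mid and distal organoids, and the counts of each list below stand beside these shares. Of 2 further receptors past the filter, Notch3 fell in distal organoids (-0.51 ± 0.14 SE, limma adjusted p = 0.00484), and Notch4 fell in mid (-0.93 ± 0.26, adjusted p = 0.00586) and distal organoids (-0.66 ± 0.26, adjusted p = 0.0373). Notch4 passed the filter through control libraries alone. Of 12 genes for receptor cleavage and glycosylation, 6 rose in each region, while 3 fell in proximal, 2 in mid and 2 in distal organoids. Those that rose included the gamma-secretase subunits Aph1a (0.92, 1.05 and 1.01 in proximal, mid and distal organoids) and Ncstn (0.67, 0.95 and 0.85). Ncstn stood at 37.5 ± 1.89 FPKM (SD, n = 3) in proximal control and 60.8 ± 8.78 in proximal differentiation medium. Poglut1, which adds glucose to Notch, fell, with log2 fold changes of -1.09, -0.88 and -1.14, and so did Pofut1, which adds the fucose that Lfng extends (-0.77, -0.40 and -0.68). Scaled to summed reads, 6, 4 and 5 of the 12 rose and 5, 4 and 5 fell in proximal, mid and distal organoids. The list's median log2 fold change was 0.29, 0.23 and 0.34.

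Of 13 genes of Notch and ligand trafficking and turnover, 7, 8 and 8 rose and 4, 3 and 4 fell in proximal, mid and distal organoids, with list medians of 0.55, 0.70 and 0.65. Neurl1b, a ubiquitin ligase that acts on Notch ligands, rose by 1.71, 1.73 and 1.89 (SE 0.28), from 5.496 ± 0.758 to 20.2 ± 1.16 FPKM (SD, n = 3) in proximal organoids. Numb, an inhibitor of Notch, rose by 0.999, 1.28 and 1.16 (SE 0.14). Dtx4, a ubiquitin ligase of the Deltex family, fell (log2 fold changes -1.91, -1.82 and -2.03, SE 0.18), from 11.6 ± 0.0783 to 2.48 ± 1.13 FPKM in proximal organoids. On the scale of summed reads 6, 7 and 6 of these genes rose and 4, 5 and 5 fell. Without proximal differentiation replicate 1, 8 of them rose in proximal organoids.

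Of 12 genes of the nuclear complex, 1, 2 and 2 rose and 5, 5 and 6 fell in proximal, mid and distal organoids, with list medians of -0.24, -0.12 and -0.20. The acetyltransferase Kat2a fell (log2 fold changes -1.96, -1.87 and -1.76, SE 0.31), while its paralogue Kat2b rose by 0.38, 1.001 and 0.86 (SE 0.15). Rbpj, singled out after its values were seen, fell in all 3 regions (-0.30, -0.34 and -0.28, SE 0.08, limma adjusted p = 0.00412, 0.00121 and 0.00546). Its FPKM went from 3.91 ± 0.0498 to 2.98 ± 0.104 (SD, n = 3) in proximal organoids. On the scale of summed reads 0, 1 and 1 of the 12 rose and 8, 9 and 9 fell.

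Of 10 further Hes, Hey and target genes 4 passed the filter, and in each region 1 rose and 1 fell. Hes2, a relative of Hes1, rose from 0.0366 ± 0.0273 to 3.86 ± 1.32 FPKM (SD, n = 3) in proximal, from 0.131 ± 0.0432 to 7.39 ± 1.84 in mid and from 0.148 ± 0.110 to 7.28 ± 3.10 in distal organoids. Its log2 fold changes were 2.19, 2.87 and 2.77 (SE 0.26, limma adjusted p = 8.25e-06, 3.19e-07 and 5.30e-07), and it passed the filter through differentiation libraries. Hes6, which can oppose Hes1, fell (-0.71, -0.42 and -0.66, SE 0.16). Nrarp, a target that limits Notch signalling, was not called, at 2.16 ± 0.154 FPKM in proximal control and 1.87 ± 0.422 in proximal differentiation medium. Hey2 had 0 reads in all 18 libraries.

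**Figure D4:**
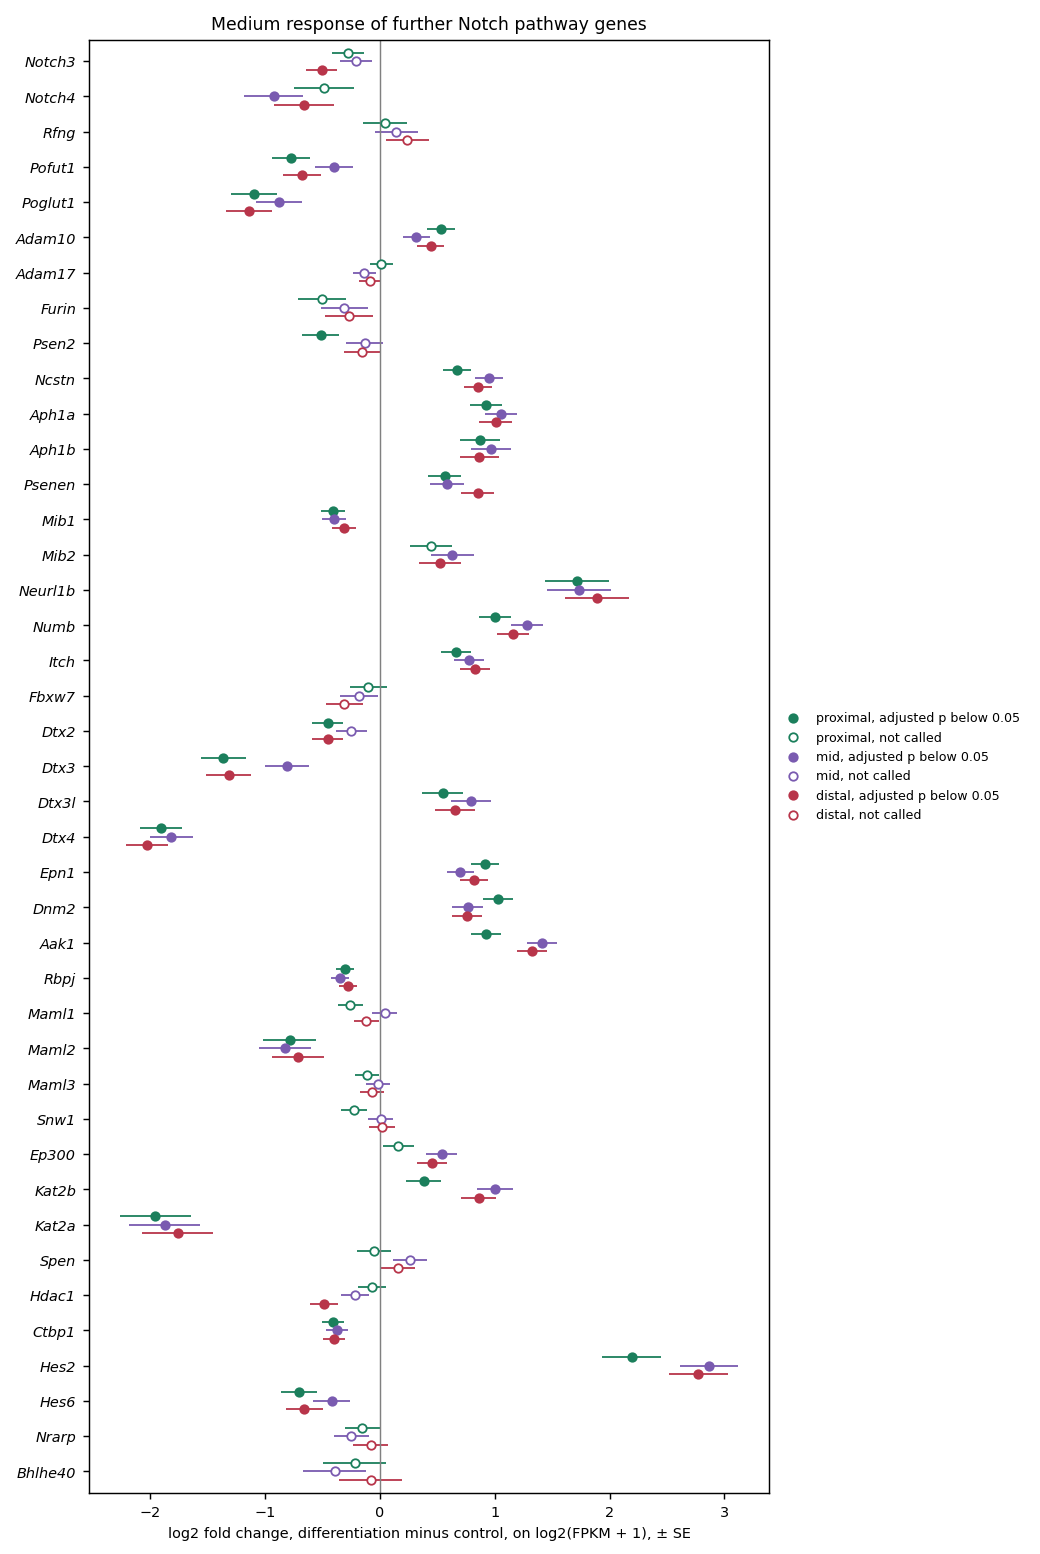
Log2 fold change of log2(FPKM + 1), differentiation minus control medium, with its SE, for most of the further Notch pathway genes past the filter (rows) in the 3 regions (colours; filled points passed an adjusted p of 0.05). Hes2 and Neurl1b lie to the right in every region and Dtx4 and Kat2a to the left.

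Secretory transcription factors did not move as one group. Of 13 past the filter, 3, 1 and 2 rose and 6, 6 and 4 fell in proximal, mid and distal organoids, with list medians of -0.05, -0.36 and -0.18. Spdef, a factor of goblet cell maturation, rose in proximal (1.34 ± 0.26 SE, limma adjusted p = 0.000546) and distal organoids (1.40 ± 0.26, adjusted p = 0.000252). Its mid value was 0.42 ± 0.26 (limma adjusted p = 0.168). Klf4, a factor of goblet and surface cells, rose by 1.83, 2.98 and 2.83 (SE 0.24). Sox4, a factor of early secretory cells, fell (-1.47, -1.49 and -1.09, SE 0.27), and so did Foxa3 (-1.26, -1.11 and -1.17, SE 0.13). Scaled to summed reads, 2, 1 and 2 rose and 6, 9 and 8 fell. Without proximal differentiation replicate 1, 5 fell in mid and 5 in distal organoids.

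Lists of mature secretory cells differed from each other. Of 10 goblet cell genes past the filter, 7, 8 and 8 rose and 0 fell in proximal, mid and distal organoids, and the list's median log2 fold change was 1.91, 1.88 and 2.60. Tff3, a goblet cell peptide, rose from 51.6 ± 34.4 to 552 ± 106 FPKM (SD, n = 3) in proximal organoids. Of 8 enteroendocrine genes 4, 7 and 6 rose and 0 fell, with list medians of 0.54, 1.43 and 1.45, and 1 of the 8, Scg2, passed the filter through differentiation libraries alone. Chgb, a granule protein of these cells, rose by 2.09, 1.64 and 1.85 (SE 0.34). When scaled to summed reads, goblet cell genes rose in 6, 6 and 7 and fell in 1, 1 and 1 of 10. Of 2 Paneth cell genes tested 0 rose and 1, Mmp7, a metalloprotease, fell in each region (-3.36, -2.37 and -1.81, SE 0.36), and it passed the filter through control libraries alone. Lyz1, the other Paneth cell gene, had values of -0.29, -1.34 and -0.86. Reg4, a gene of deep crypt secretory cells and the 1 of its list tested, was not called in limma (-0.37, -1.06 and -1.34, SE 0.64). At an unadjusted p under 0.05 Reg4 was called in 0 regions.

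Across the 18 libraries the tested genes most like Atoh1 in log2(FPKM + 1) were Hepacam2 (Pearson r = 0.941), Tff3 (0.915), Spdef (0.909), Selenom (0.904) and Cracd (0.903). Those most like Hes1 were Vps72 (0.849), Snhg16 (0.848), Septin10 (0.838), Zfp629 (0.831) and Msantd3 (0.830). Lfng was closest to Lgr5, a receptor of crypt stem cells (0.978), Pkp1 (0.978) and Cnbp (0.974). Jag1 was closest to Ssh1 (0.982), Tanc1 (0.978) and Bcl9 (0.973), and Jag2 to Mllt6 (0.980), Pak6 (0.979) and Ajuba (0.977). The receptor Notch2 was closest to Kifc3 (0.984), Frmd6 (0.979) and Map4k4 (0.977), and Notch1 had Fasn (0.962) and Mybl2 (0.958) among its closest. Dll1 was closest to Foxd2 (0.931), 1700019D03Rik (0.928) and C4bp (0.913), and Dll4 to Evx1 (0.900), Mical1 (0.898) and Mfsd4a (0.876). Gfi1 was closest to Pigr (0.962), Rasd2 (0.947) and Hao2 (0.946). The libraries share region and medium, so these values describe this table and carry no test.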

How the data were processed

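Poly-A RNA of 18 libraries was sequenced. The authors deposited FPKM per gene and library, made with HISAT2 2.0.5 and featureCounts 1.5.0-p3 on mm39 per the submitters' processing notes. The annotation release, the strand setting and how the libraries were scaled are not given in the sources used here. A median-of-ratios factor is the median, over genes, of a library's value relative to the geometric mean of all libraries. Computed from the deposited FPKM, this factor was the same, 1.01, in all 18 libraries, so the FPKM already carried a scaling of this kind. FPKM times gene length fell on whole reads for 100% of values within a tolerance of 0.001. Summed reads were 0.831 to 0.873 times the library size behind the FPKM in control and 0.959 to 1.32 times in differentiation libraries. The table also holds 6 group mean columns made by the authors, which were not tested.

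The 12896 genes that reached an FPKM of 1 in 3 or more libraries were fitted as log2(FPKM + 1), with a pseudocount of 1, in one model of 6 group means by limma 3.58.1 in R 4.3.3 (two-sided moderated tests with a trend). Benjamini-Hochberg adjustment ran over all tested genes in each comparison, and the threshold was 0.05. The depth sets the precision of low genes such as Gfi1. Alternatives were other pseudocounts and filters, scaling to summed reads, voom on the recovered reads, a replicate block, a fit of only the groups compared, and each library left out. Scaling by the median-of-ratios factors was a further alternative, which divided every library by the same number.

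The members and gene lists were chosen with earlier results of these data known. All 10 members are named, and from each further list up to 3 of the largest rises and falls per medium comparison could be named. Genes of like pattern are the 5 closest to Atoh1 and Hes1 and the 3 closest to the other members. Single values of a few listed or closest genes are not reported here, while list counts include them. Lists of other cell types were included. Epithelial genes rose in 4, 4 and 5 of 5 in proximal, mid and distal organoids. Of all tested genes 27.6%, 31.5% and 31.6% rose. Promoter windows came from RefSeq on GRCm38.p6, a build kept apart from the table's mm39. Same-numbered libraries of different groups were compared by their deviations from the group means, and 23 of 45 pairs correlated above 0.1. All 3 pairs did so in 2 of 15 pairs of groups, so the numbers were not taken to pair samples over the whole design. Other software was matplotlib 3.10.9, numpy 2.4.6 and pandas 2.3.3, run in Python 3.11.15.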

Additional observations from a re-analysis of the deposited data

Results flagged for a closer look

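The response of Hes1 to the medium differed between distal and proximal organoids by the interaction term, at 0.67 ± 0.18 (SE, limma adjusted p = 0.0317). In proximal organoids Hes1 was at 22.6 ± 2.24 FPKM in differentiation and 39.8 ± 2.08 in control medium (SD, n = 3), with no overlap between the libraries. In distal organoids the means were 30.3 ± 6.70 in differentiation and 32.6 ± 2.41 in control medium, and distal differentiation replicate 1 stood at 37.9. With only the distal and proximal groups in the fit, the limma adjusted p was 0.107.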

How the results depend on the processing

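Of 45 calls for the 10 genes over all comparisons, 32 held under every alternative that tested the gene, and no called value reversed its direction. A filter of FPKM 5 left 6 of the 10 genes, which gave 5 calls for the medium response in mid organoids. In distal against proximal organoids it gave 1 call in control and 4 in differentiation medium, and in mid against proximal in differentiation medium 3. The voom fit gave 4 calls for distal against proximal in control medium and 1 for the F test over regions. For distal against proximal in differentiation medium, scaling to summed reads gave 5 calls and a fit of only the groups compared gave 4. The distal minus proximal response had 0 calls with no filter and 0 with only the groups compared. The F test had 1 call with a pseudocount of 0.1 and 1 when scaled to summed reads.

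With the replicate block, distal against proximal in control medium had 4 calls and the F test 2. It called Atoh1 and Notch2 in the former (limma adjusted p = 0.0284 and 0.0387), and Gfi1 for the proximal medium response and for mid against proximal in control medium (0.0182 and 0.0221). Deviations of same-numbered libraries correlated at -0.387 to 0.542, and 10 of 18 libraries correlated best, on average, with their own number. All 3 pairs were above 0.1 for mid with distal control and for distal control with distal differentiation libraries. In those 2 comparisons the block changed no call of the 10 genes, and it moved no other count of their calls by over 1.5 times.

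Leaving out single libraries gave 2 to 4 calls for distal against proximal and 2 to 7 for mid against proximal in control medium. In differentiation medium the ranges were 4 to 8 and 4 to 7. The distal minus proximal response had 0 to 3 calls and the F test 0 to 3. The medium response kept 6 to 7, 7 to 8 and 7 to 8 calls in proximal, mid and distal organoids. Depth limits Gfi1, with as few as 2 reads in a library.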
